A study of Mus musculus with 77 samples.

Results

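The enhancers described here are the unbound enhancers of granulocytes only: 5842 of the 44002 mouse enhancers of the deposited table, or 13.3%. They were selected on measured values, by 2 annotations that the authors made from their own ChIP-seq data. The stage annotation of a member names granulocytes and no earlier stage, and the annotation of bound factors is empty, that is, it names neither PU.1 nor CEBPA. They make up 62.7% of the 9324 enhancers annotated to granulocytes alone and lie among 26166 enhancers without a bound factor. The table assigns them to 2503 of its 10096 genes.

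The labels list 77 libraries from fresh mouse bone marrow, of which 30 ChIP-seq libraries belong to the 15 groups used here, 2 to a group. The wild type groups were LSK (lineage-negative cells with Sca-1 and ckit, which include the stem cells), preGM (lineage-negative, without Sca-1, with ckit, without CD150 and CD105), GMP (lineage-negative, without Sca-1, with ckit, without CD150, with FcgRII/III) and granulocytes (Mac1 and Gr-1 positive). The KO group was preGM labelled as CEBPA KO. Ages and the way the gene was deleted are not given in these labels. Each group had 1 value per enhancer, taken from the column's name to join its 2 libraries. No difference between groups therefore has a replicate error or a test, and every comparison is a description of these single values. Depth per library is unknown. In sorted populations, a change in every cell and a change in the mix of cells cannot be told apart.

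Enhancers are stretches of DNA that raise the transcription of genes on the same chromosome when transcription factors bind them. H3K4me1 marks enhancers whether they are active or only primed, and H3K27ac marks those that are active. PU.1 and CEBPA are the main transcription factors of the myeloid lineage, and Cebpa is required for the step from preGM to GMP. Granulocytes, mostly neutrophils, make their granule proteins in a fixed order: primary granules with myeloperoxidase and serine proteases are filled in early progenitors, and secondary and tertiary granules with lactoferrin, cathelicidin and gelatinase are filled later.

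The annotation sets what can be read from these values. The criterion for a stage is not stated, so both histone marks in all 4 stages count as used by the selection, and their levels are given as a description. What the factor annotation was made from is not stated either. The table has no PU.1 or CEBPA column for granulocytes, so binding in granulocytes themselves was not analysed here. The PU.1 limit is visible in the GMP column, where no unbound enhancer of the table exceeded 2.999. The members closest to it were at Ccar1 (2.985) and Plagl2 (2.987), and the nearest granulocyte-only enhancers above it, both annotated to PU.1, were at Med13l (3) and Hist3h2a (3.004). The value alone does not give the class, since 283 of the 1339 granulocyte-only enhancers annotated to PU.1 lay at or under the same limit. In other columns members passed it: 69 in wild type preGM, 12 in LSK and 15 in KO preGM.

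Sequences are shown for promoters of the secondary and tertiary granule genes. Outside the marker lists of cell types, this list had the densest supply of members. Of the secondary and tertiary granule genes with a member, 13 of 16 matched a RefSeq promoter (build GRCm38.p6, from 250 bases before the transcription start to 50 after). The CEBP motif searched was TTGCNNAA on either strand, and 5 of the 13 promoters held it, or 38.5%, against 9.89% of the 7338 matched genes of the enhancer table and 12.2% of all 27025 genes with a promoter. The 250 bases before the start of those 5 are shown on the gene's own strand. Capitals mark the CEBP motif, the PU.1 motif GAGGAAGT and the RUNX motif TGTGGT, each on either strand.
Ltf, lactoferrin (chr9:111019042-111019291, plus strand): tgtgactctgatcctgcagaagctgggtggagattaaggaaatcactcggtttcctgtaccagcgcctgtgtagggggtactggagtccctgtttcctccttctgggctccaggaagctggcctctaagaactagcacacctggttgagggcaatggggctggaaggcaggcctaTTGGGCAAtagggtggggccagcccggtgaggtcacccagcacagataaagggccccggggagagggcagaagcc
S100a9, a subunit of calprotectin (chr3:90695722-90695971, minus strand): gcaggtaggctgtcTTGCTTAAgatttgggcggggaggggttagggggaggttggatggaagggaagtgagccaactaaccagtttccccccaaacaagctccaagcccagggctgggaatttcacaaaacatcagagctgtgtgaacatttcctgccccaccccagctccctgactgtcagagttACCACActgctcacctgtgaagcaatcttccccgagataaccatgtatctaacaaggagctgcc
Ngp, neutrophilic granule protein (chr9:110419558-110419807, plus strand): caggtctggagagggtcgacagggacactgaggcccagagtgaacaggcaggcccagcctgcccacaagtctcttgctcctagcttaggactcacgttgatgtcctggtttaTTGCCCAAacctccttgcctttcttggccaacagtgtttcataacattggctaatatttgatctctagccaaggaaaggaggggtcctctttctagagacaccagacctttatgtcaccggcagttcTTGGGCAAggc
Mmp8, neutrophil collagenase (chr9:7558179-7558428, plus strand): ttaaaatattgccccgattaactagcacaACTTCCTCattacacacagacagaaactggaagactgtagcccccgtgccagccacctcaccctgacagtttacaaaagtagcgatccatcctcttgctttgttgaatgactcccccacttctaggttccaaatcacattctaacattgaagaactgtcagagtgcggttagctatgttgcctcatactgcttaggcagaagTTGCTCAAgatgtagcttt
Lcn2, lipocalin 2 (chr2:32387740-32387989, minus strand): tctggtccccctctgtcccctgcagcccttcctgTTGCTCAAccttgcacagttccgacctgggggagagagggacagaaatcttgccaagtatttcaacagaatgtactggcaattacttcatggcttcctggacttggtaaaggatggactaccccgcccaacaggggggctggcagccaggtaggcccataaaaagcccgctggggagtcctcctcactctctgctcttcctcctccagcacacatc

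The first base of the CEBP match lay at -75 from the start in Ltf, -236 in S100a9, -138 and -11 in Ngp, -19 in Mmp8 and -216 in Lcn2. Over the 215 matched genes with 5 or more members the CEBP motif was present in 11.2% of promoters, close to its share among all genes with a promoter. The PU.1 motif was present in 6.98% of these 215 promoters, in 3.79% of those of the enhancer table's genes and in 3.69% of all promoters. The RUNX motif was present in 19.1%, 15.6% and 18.9%. CEBP was not alone in its excess over the table's genes among the 13 promoters of the granule list. The motif AGATAA of GATA factors was in 4 of them, or 30.8% against 7.60%, and PU.1 in 3, or 23.1% against 3.79%. RUNX was also in 3, or 23.1% against 15.6%, and AP-1 (TGANTCA) and IRF (GAAANNGAA) were in none. A match is a string of letters and not a bound site, and the difference in share was not tested. The enhancers' own coordinates are in build mm9, of which no genome was used here, so no enhancer sequence is shown and overlaps with exons and introns were not analysed.

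Across the progenitors the members carried little of either mark. The median H3K27ac signal over the 5842 members was 0.716 in LSK, 0.627 in preGM, 0.789 in GMP and 1.86 in granulocytes, against medians of 0.936, 0.908, 1.20 and 1.48 over all enhancers. Thus the members lay under the typical enhancer in the 3 progenitor stages and above it in granulocytes. The medians of H3K4me1 were 1.37, 1.42, 2.33 and 6.52, against 3.26, 3.07, 3.79 and 5.41. Granulocytes held the highest H3K4me1 of the 4 stages at 5744 members (98.3%, against 66.4% of all enhancers) and the highest H3K27ac at 4876 (83.5%, against 48.3%). The lowest H3K4me1 values of members in granulocytes were 1.65 at Lrch1 and 1.94 at B4galt6. Signal is in the authors' own unit, which is not named, and whether it is divided by the enhancer's width is not stated.

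**Figure D1:**
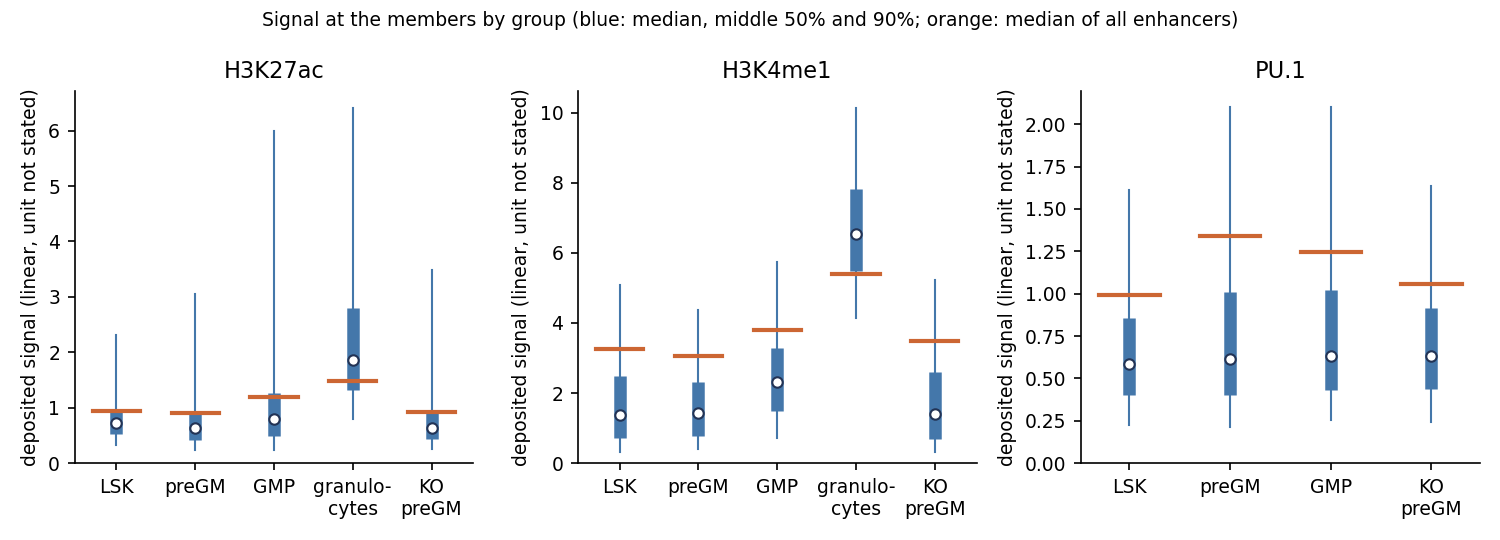
Deposited signal at the 5842 members in each group for H3K27ac, H3K4me1 and PU.1 (y axis, linear, unit not stated). White points are medians over members, thick bars the middle 50%, thin bars the middle 90%, and orange lines the medians of all 44002 enhancers; H3K27ac and H3K4me1 medians of members pass the orange line in granulocytes only, and PU.1 medians lie under it in all 4 groups.

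Taken at the median of all enhancers in each column, 67.7% of members were under it for both marks in LSK, 68.0% in preGM and 65.9% in GMP, and 15.1% in granulocytes. Both marks reached that median at 10.4% of members in GMP and at 58.5% in granulocytes. A further 17.9% reached it in granulocytes for H3K4me1 alone and 8.54% for H3K27ac alone. The unbound enhancers annotated to GMP and granulocytes together (1342) were already different in GMP, where 27.2% were under the median for both marks and 31.7% had both.

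From GMP to granulocytes, H3K27ac was at least 2-fold higher at 1919 members (32.8%; 14.1% of all enhancers) and at least 2-fold lower at 151 (2.58%; 6.05% of all enhancers), and 3772 lay between. The ratio was taken after adding 0.7 to both values, so it understates differences at weak enhancers, and its median over members was 0.73 on the log2 scale (all enhancers 0.14). The middle 90% of members lay between -0.54 and 1.84. The share at least 2-fold higher depends on the value added: it was 52.2% with 0.175 and 4.90% with 2.8, since most members have signal near the value added. In comparison, H3K27ac was at least 2-fold higher at 34.2% of the 3482 granulocyte-only enhancers with a bound factor and at 18.9% of the unbound enhancers of GMP and granulocytes. For the 4289 unbound enhancers of GMP alone that share was 4.34%. H3K27ac counts as used by the stage annotation, which can set the order of these shares, so nothing is read from it.

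Over the earlier steps the members moved less. From preGM to GMP, H3K27ac was at least 2-fold higher at 356 members (6.09%; 9.21% of all enhancers), and the median log2 ratio was 0.19 (all enhancers 0.29). That share was 17.0% or 0.736% with 0.175 or 2.8 added, and after subtracting the median of all enhancers it was 1.59% and the median log2 ratio -0.10. From LSK to preGM the median log2 ratio was -0.06 (all enhancers 0.03). The step from preGM and the step from GMP share the GMP values, so they are not independent of each other. H3K27ac in GMP was at or above the granulocyte value of the same enhancer at 794 members, in preGM at 371 and in LSK at 306.

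Each gene named next with a pair of values is named for 1 member. The largest ratios were at Ldha, the lactate dehydrogenase of anaerobic glycolysis (chr7:54097412-54097494), where H3K27ac was 0.744 in LSK, 0.380 in preGM, 0.201 in GMP and 10.1 in granulocytes. A member at 1700067P10Rik had 1.19, 0.382, 0.761 and 16.0 over the same stages, and 1 at Gngt2, a G protein gamma subunit, had 1.16, 0.553, 0.550 and 13.5. All 3 thus stayed at 1.19 or lower in every progenitor and were at 10.1 or higher in granulocytes. The member at Ntng2, a netrin family gene, went from 0.308 in GMP to 10.3, and 2 members at Rbm38, an RNA-binding protein gene, from 0.708 to 14.6 and from 0.320 to 10.3. Expression of Ldha, in the table's unnamed unit, was 1411 in GMP and 4283 in granulocytes, and that of Ntng2 63.0 and 230.1, while that of Gngt2 was 14.8 and 22.2 and that of 1700067P10Rik 14.8 and 15.1.

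The highest H3K27ac levels in granulocytes belonged to another kind of member. The 3 highest were at Bcl2l13, a mitochondrial BCL2 family gene (34.7), Nap1l4, a histone chaperone gene (31.7), and Psma7, a proteasome subunit gene (31.1), and these had 38.2, 20.2 and 20.2 already in GMP and 15.1, 9.74 and 8.10 in LSK. Zranb1, Zfp655, Rbbp6, 0610007L01Rik, Xpo1 and Tstd2 followed, with granulocyte values from 21.7 at Tstd2 to 30.4 at Zranb1 and GMP values from 17.2 at Tstd2 to 40.3 at Xpo1. Only the tenth, at Mterfd2 (chr1:95186533-95186893), was weak before: 1.58 in LSK, 1.89 in preGM, 1.78 in GMP and 21.7 in granulocytes. In H3K4me1 the same 10 members were between 1.19 and 3.92 in GMP and between 2.96 and 12.6 in granulocytes.

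A small set of members therefore carried strong H3K27ac before the granulocyte stage despite an annotation to granulocytes alone. In GMP, 183 members (3.13%), at 170 genes, were among the top 5% of all enhancers, which began at 9.08. Their medians were 4.58 in LSK, 7.20 in preGM, 14.5 in GMP and 8.71 in granulocytes for H3K27ac, while H3K4me1 was 2.66, 2.06, 2.37 and 6.31. Since the GMP value chose these 183, nothing is read from their ratio of granulocytes to GMP. They were wider than the typical member, with a median of 409 bp against 242.5 bp. Among the granulocyte-only enhancers with a bound factor, 10.4% were in that top 5%.

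The 151 members whose H3K27ac was at least 2-fold lower in granulocytes were at 137 genes, among them primary granule genes and Myc. Their medians were 2.69 in LSK, 4.21 in preGM, 8.53 in GMP and 2.46 in granulocytes. At Ctsg, cathepsin G of the primary granules (chr14:56719875-56720409), H3K27ac was 0.436, 2.22, 18.5 and 0.954, so GMP stood alone. At Mpo, myeloperoxidase (chr11:87615420-87615850), it was 0.820, 1.96, 12.5 and 1.06. At Myc, a growth-promoting transcription factor, it was 2.03, 2.94, 7.22 and 0.460, and at Tgif1, a transcriptional repressor, 3.40, 5.19, 14.5 and 0.900. Hnrnpf, an RNA-binding protein, had 20.4 in GMP and 2.35 in granulocytes, and Dyrk2, a kinase, 15.1 and 1.70. H3K4me1 was higher in granulocytes than in GMP at 148 of the 151, as at 98.7% of all members, which the annotation to granulocytes sets (68.2% of all enhancers). It was 2.23 in GMP and 6.26 in granulocytes at Ctsg, 4.51 and 14.2 at Dyrk2, and 7.26 and 7.55 at Mpo.

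H3K4me1 was at least 2-fold higher in granulocytes than in GMP at 2695 members (46.1%; 9.69% of all enhancers) and at least 2-fold lower at none, with 2 added to both values. Since the selection asks for granulocytes and not GMP, nothing is read from this share. With 8 added it was 0.942%. Of all 5842 members, 1235 were at least 2-fold higher in both marks, 684 in H3K27ac alone and 1460 in H3K4me1 alone. Of all 44002 enhancers, these counts were 1818, 4370 and 2447. Across members the ratios of the 2 marks had a Spearman rho of 0.38 (n = 5842 enhancers, which share libraries, neighbours and genes). Across all enhancers it was 0.41, so this relation is not particular to the members. The members at least 2-fold higher in H3K27ac had an H3K4me1 median of 2.07 in GMP and 7.16 in granulocytes, and those at least 2-fold lower 2.71 and 6.99.

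**Figure D2:**
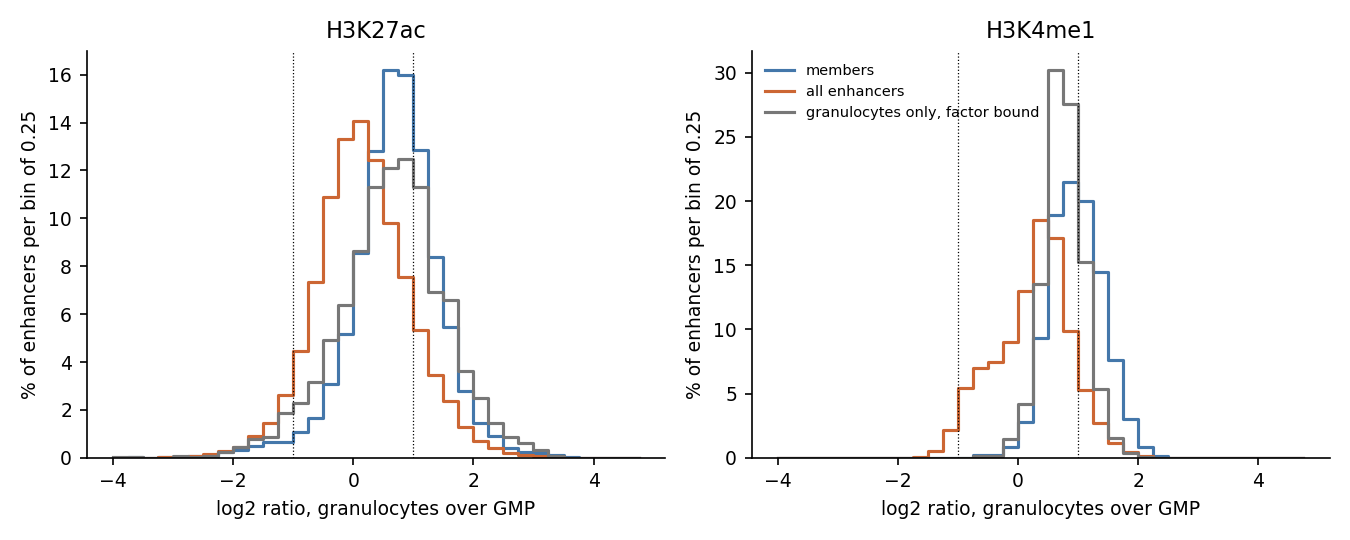
Log2 ratio of granulocytes to GMP (x axis, bins of 0.25) for H3K27ac and H3K4me1, as the share of enhancers per bin (y axis), for the 5842 members, all 44002 enhancers and the 3482 granulocyte-only enhancers with a bound factor; dotted lines mark 2-fold. Members are shifted to the right of all enhancers in both marks, with medians of 0.73 and 0.95 against 0.14 and 0.32, and the H3K27ac curve keeps a tail under -1. The annotation to granulocytes can set this shift.

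PU.1 signal was low at the members, as the annotation requires: medians were 0.584 in LSK, 0.613 in preGM and 0.630 in GMP, against 0.994, 1.34 and 1.25 over all enhancers. CEBPA in wild type preGM had a median of 0.483 against 0.534 over all enhancers and 0.668 at the granulocyte-only enhancers with a bound factor. The highest PU.1 values in preGM were 4.93 at Mbnl2, a splicing regulator, 4.65 at Myo1f, a myosin of immune cells, and 4.58 at Csnk1e, a kinase, and their GMP values were 2.93, 2.89 and 2.84. The highest CEBPA values were 2.08 at Hjurp, a centromere chaperone, 1.78 at Rhou, a small GTPase, and 1.65 at Zc3hc1. The Rhou member had its highest H3K4me1 in LSK, at 16.2, and 10.4, 10.3 and 6.11 in preGM, GMP and granulocytes, an order shared by few members: LSK was the highest stage at 50 of 5842.

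The member at the middle of all in granulocyte H3K27ac, at S100a9 (chr3:90494788-90495108), had 0.507, 0.123, 0.708 and 1.86 over the 4 stages.

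Within 5 kb of another member were 3608 members (61.8%), and runs of 5 or more members, each within 5 kb of the next, numbered 139. This share was not taken over all enhancers, so whether members lie closer together than enhancers in general was not tested. The same share was 28.8% for the unbound enhancers of GMP and granulocytes, 34.2% for the unbound enhancers of GMP alone and 30.2% for the granulocyte-only enhancers with a bound factor, but these sets are smaller, which lowers it, and the part of set size was not tested. Members were 20 to 965 bp wide (median 242.5 bp, all enhancers 194 bp). Neighbouring members share a stretch of chromatin and often a gene, so they are not separate measurements of a condition.

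The longest run was at Tbc1d8, a gene of the TBC family that regulates Rab GTPases. Its 21 members on chr1:39492015-39523809 had a median H3K27ac of 0.751 in LSK, 0.496 in preGM, 0.665 in GMP and 2.11 in granulocytes, and 9 were at least 2-fold higher in granulocytes than in GMP. A run of 16 at Apitd1 and Pgd, the pentose phosphate pathway enzyme, went from 0.732 in GMP to 1.65, and a run of 14 at Papss1 and Sgms2 from 0.675 to 2.04. The 13 members at Camp and Cdc25a (chr9:109754404-109768667) were the only enhancers of the table in that span and went from 0.539 to 2.05. Some runs moved as 1 block: all 9 members at Mxi1, a MAX-binding repressor, were at least 2-fold higher, from a median of 0.420 to 2.36, and all 9 at Ccdc57 and Slc16a3, a lactate transporter, from 0.412 to 2.72. Other runs stayed at lower H3K27ac levels. At Mettl9 the median of 13 members went from 0.498 in GMP to 1.21, and at C5ar1, the receptor for complement C5a, that of 11 members from 0.432 to 0.958. With 0.7 added, which weighs most at such low values, no member of either run was at least 2-fold higher. Their H3K4me1 medians went from 1.37 to 5.14 and from 1.49 to 5.27.

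By gene, 1330 genes had 1 member, 877 had 2 to 4 and 296 had 5 or more. The most were 27 of 42 enhancers at Tbc1d8, 19 of 26 at Jhdm1d, a histone demethylase, 18 of 35 at Litaf, an endosomal regulator induced by lipopolysaccharide, and 17 of 22 at Sorl1, a sorting receptor. Gm14005 had 16 of 44, and Prkcb (a protein kinase C), Mgll (monoacylglycerol lipase), Tbc1d2, Fam49b and Mettl9 had 15 each. At Sorl1, H3K27ac over the 17 members ran from 0.225 to 1.39 in GMP (median 0.431) and from 1.27 to 5.27 in granulocytes (median 2.61), with 13 at least 2-fold higher and a narrow overlap. At Litaf it ran from 0.180 to 1.86 in GMP and from 1.31 to 7.14 in granulocytes, with 14 at least 2-fold higher, and the stages overlapped there too. At Mettl9 the ranges were 0.154 to 1.69 and 0.613 to 1.77 and overlapped over most of their length, with 1 member at least 2-fold higher. Expression was at least 2-fold higher in granulocytes than in GMP at 8 of these 10 genes. That was so at 51.7% of all genes with 5 or more members and at 11.4% of all genes. Examples among the 8 were Sorl1, with 3296 against 366.5, and Mettl9, with 4627 against 573.4. The exceptions were Gm14005 (249.2 in GMP and 227.4 in granulocytes) and Fam49b (1961 and 1618).

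**Figure D3:**
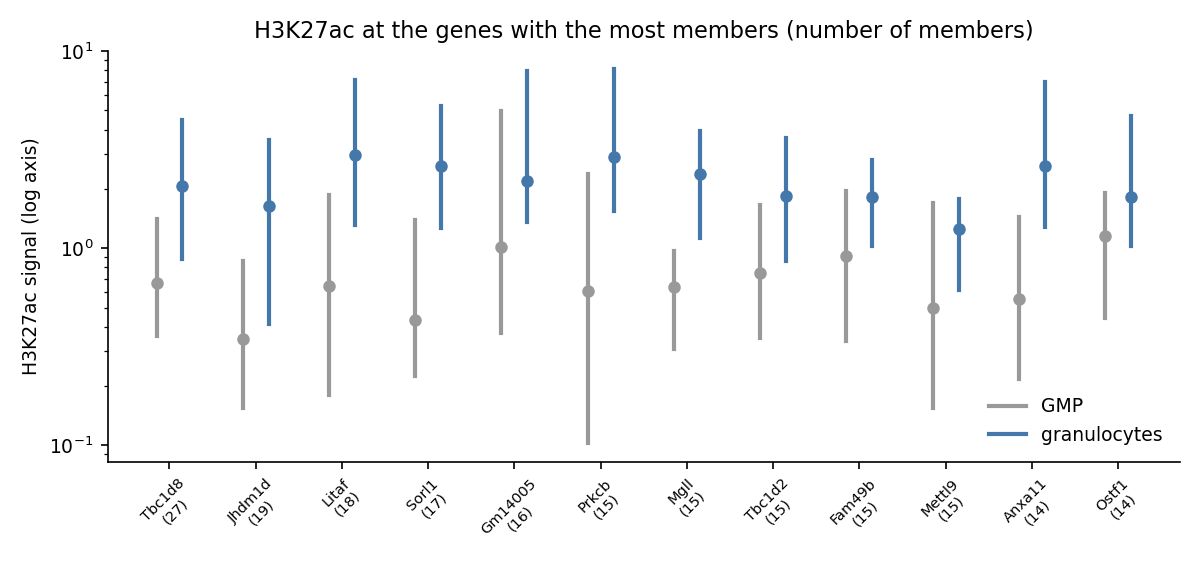
H3K27ac signal (log y axis) in GMP and granulocytes at the members of the 12 genes with the most members (number in brackets). Lines run from the lowest to the highest member and points are medians over members. At Mgll the ranges of the stages do not overlap, and at Mettl9 they overlap over most of their length. The annotation to granulocytes and not GMP can set such gaps.

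Outside the marker lists of cell types, secondary and tertiary granule genes held the densest supply of members. Of 158 enhancers assigned to the 18 genes of this list, 101 were members (63.9%, against 13.3% of all enhancers), at 16 genes. H3K27ac was at least 2-fold higher in granulocytes than in GMP at 59 of these members (58.4%, against 32.8% of all members) and lower at none. Camp, cathelicidin, had 12 of its 13 enhancers among the members. H3K27ac over them ran from 0.293 to 0.959 in GMP and from 0.999 to 3.19 in granulocytes, and 9 were at least 2-fold higher. The annotation asks for granulocytes and not GMP, so nothing is read from the narrow gap between these ranges. The strongest, chr9:109757179-109757312, had 0.776 in LSK, 0.639 in preGM, 0.550 in GMP, 3.19 in granulocytes and 0.252 in KO preGM. Its H3K4me1 was 0.447, 0.271, 0.915, 10.6 and 0.402. The list is not limited to granule contents and also holds the calprotectin genes S100a8 (11 of 13 enhancers) and S100a9 (7 of 7). These 2 genes started lowest, with GMP medians of 0.173 and 0.181 and granulocyte medians of 2.12 and 1.86. A member at S100a9, chr3:90489305-90489834, had 0.274, 0.115, 0.117 and 3.11 over the 4 stages.

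At Ltf, lactoferrin, 8 of 9 enhancers were members, with an H3K27ac median of 0.469 in GMP and 1.81 in granulocytes and an H3K4me1 median of 0.504 and 7.65. At Cd177, a surface protein of neutrophils, 6 of 7 were members and all 6 were at least 2-fold higher (medians 0.401 and 2.26). Itgb2l, a beta integrin, had 3 of 4, with a range of 0.419 to 0.973 in GMP and 2.70 to 5.02 in granulocytes. Ngp had 4 of 5 (medians 0.576 and 3.15) and Mmp9, gelatinase B, 5 of 13 (0.540 and 2.16). Pglyrp1, a peptidoglycan-binding protein, had 9 of 12, Itgb2, the beta chain of Mac1, 11 of 24, Lyz2, lysozyme, 8 of 12, and Hp, haptoglobin, 6 of 7. The 4 members at Mmp8 had H3K27ac medians of 0.231 in GMP and 1.04 in granulocytes and the 2 at Lcn2 0.834 and 1.87, and with 0.7 added none was at least 2-fold higher. Expression in GMP and granulocytes was 34.1 and 1737 for Mmp8 and 97.1 and 8414 for Lcn2.

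Primary granule genes had members at a lower share. Of 39 enhancers at 8 genes, 9 were members (23.1%). In H3K27ac, 5 of them were at least 2-fold higher (55.6%, against 32.85% of all members) and 2 lower. Their median log2 ratio was 1.08, against 1.11 for the secondary and tertiary granule members. The difference between these lists was not tested. In expression, Lyz1 was at least 2-fold higher in granulocytes than in GMP and the other 3 genes at least 2-fold lower. All 16 secondary and tertiary granule genes with a member were at least 2-fold higher. Of the 9, 6 were at Lyz1, another lysozyme, with 4 of the 5 higher (medians 0.557 and 1.92), so the list's H3K27ac values rest mostly on this gene. The others were 1 each at Ctsc, the protease that activates granule serine proteases (higher, 0.109 and 1.17), and at Mpo and Ctsg, where H3K27ac was lower in granulocytes as given above.

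Genes of migration, killing and sensing carried members at shares above the 13.3% of all enhancers. For chemotaxis and adhesion it was 66 of 257 enhancers (25.7%), with 20 of the 66 at least 2-fold higher in H3K27ac (30.3%, against 32.8% of all members) and none lower. Cxcr2, the receptor for neutrophil chemokines, had 9 members, 7 of them at least 2-fold higher, and its strongest (chr1:74213029-74213250) had 0.649, 0.672, 0.631 and 4.29 over the 4 stages. Cxcr4, the receptor that retains cells in marrow, had 6 members, none at least 2-fold higher (medians 0.837 in GMP and 1.60 in granulocytes). A member at Itgal, the alpha chain of LFA-1, reached 7.05 in granulocytes from 1.22 in GMP. Ptafr, the receptor for platelet-activating factor, had 5 members (2 higher). Its strongest reached 6.87 in granulocytes from 0.846 in GMP, and the median of the 5 in granulocytes was 1.92.

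For the oxidase, phagocytosis and Fc receptors it was 68 of 215 (31.6%), with 22 of the 68 higher (32.4%) and none lower. Syk, the kinase downstream of Fc receptors, had 10 members (2 higher), and Fgr, a SRC family kinase, 9 (5 higher). Padi4, the enzyme that citrullinates histones, had 8 members (5 higher) with granulocyte values from 1.15 to 8.48. At both Cyba members, which lie at the p22 subunit of the oxidase, H3K27ac was 0.566 and 0.728 in GMP and 2.83 and 3.43 in granulocytes. For innate sensors and signalling it was 47 of 230 (20.4%), 16 of the 47 higher (34.0%) and none lower. In these 3 lists the share of members higher in H3K27ac was thus near that of all members. The single Tlr6 member had 0.619 in GMP and 6.86 in granulocytes. Il1r2, the decoy receptor for interleukin 1, had 9 members (2 higher) and Il1rn, the receptor antagonist, 2 of 2 (both higher).

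Regulators were less uniform. Cytokine and growth factor receptors had few members, 18 of 235 enhancers (7.66%), among them 5 at Csf2rb, the shared beta chain of the GM-CSF receptor, and 4 at Csf3r, the G-CSF receptor, none of the latter at least 2-fold higher. Myeloid transcription factors had 63 of 492 (12.8%, about the share of all enhancers). Of these, 23 were higher (36.5%, near the 32.85% of all members) and 7 were lower, as were 2.585% of all members. All 8 members at Klf2 were higher, from a range of 0.357 to 0.681 in GMP to 1.99 to 5.27 in granulocytes. The Nr4a1 member had 0.607, 0.823, 0.772 and 10.5 over the 4 stages, Id2 had 12 members (5 higher), and Bcl6 had 1 member with 0.473 in GMP and 3.40 in granulocytes. The 7 lower were all 3 at Zeb2 (medians 12.8 and 5.72), both at Myb (14.6 and 1.86) and both at Myc (8.16 and 0.641). Gfi1, a transcriptional repressor needed for granulocyte differentiation, had 3 members with medians of 1.79 and 1.80.

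Stem and multipotent progenitor genes had 10 members of 272 enhancers (3.68%). Of these, 1 was higher (10%, against 32.85% of all members) and 2 were lower, as were 2.585% of all members. One of the lower was at Lyl1, with 3.52, 5.07, 11.7 and 3.29 over the 4 stages. Cell cycle genes had 22 of 94 (23.4%), but 14 of the 22 were at Mki67, the proliferation marker, whose expression was 3817 in GMP and 1520 in granulocytes while in H3K27ac 2 of its members passed 2-fold upwards and none downwards. The single members at Top2a and Ccnb1, both mitotic genes, had 3.604 and 4.20 in GMP and 2.72 and 1.97 in granulocytes.

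**Figure D4:**
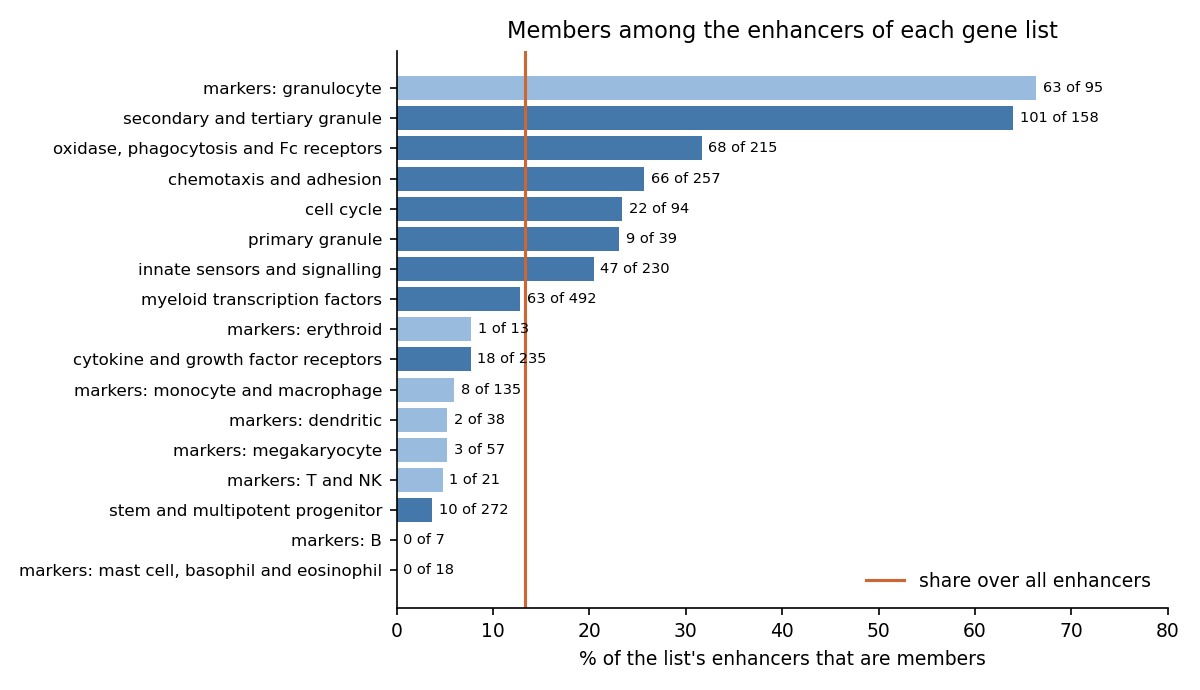
Share of the enhancers assigned to each gene list that are members (x axis, %), with the number of members and of enhancers beside each bar; light bars are marker lists of cell types and the orange line is the 13.3% of all enhancers. Secondary and tertiary granule genes (63.9%) and granulocyte markers (66.3%, partly the same genes) stand far above the line and stem and multipotent progenitor genes (3.68%) under it.

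The granulocyte label was held against markers. In the table's expression values, all 9 granulocyte markers in the table were at least 2-fold higher in granulocytes than in GMP, and their sum was 515.6 in LSK, 2046 in preGM, 4548 in GMP and 48415 in granulocytes. Of 15 monocyte and macrophage markers, 2 were at least 2-fold higher and 7 lower, and their sum was 22538 in GMP and 10081 in granulocytes, led there by Lgals3, galectin 3 (3819). The sums of the B, T and NK, erythroid, megakaryocyte, dendritic, and mast cell, basophil and eosinophil markers in granulocytes lay between 103.7 and 736.8, and none of those in the table was at 0. These sums rest on the genes that have an enhancer in the table: 3 of 8 listed B markers, 6 of 10 T and NK, 3 of 9 erythroid, 6 of 7 megakaryocyte, 6 of 7 dendritic and 3 of 7 mast cell, basophil and eosinophil markers. They therefore limit the presence of other cells little. Members made up 13.3% of all enhancers and 63 of 95 (66.3%) at granulocyte markers. At monocyte markers they numbered 8 of 135 enhancers (5 at Lgals3), at T and NK markers 1 of 21 (Cd3d) and at erythroid markers 1 of 13 (Klf1). Megakaryocyte markers had 3 of 57 (Fli1), dendritic markers 2 of 38 (Batf3 and Tcf4), and B and mast cell markers none of 7 and 18. Several of these lists have few enhancers, so a low count there says little.

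Expression gives a readout outside the 2 marks. The table holds 1 expression value per gene and group, with a unit and a source that are not given; no value is 0 (lowest 2.04), and it has 2 wild type preGM columns that differ by over 2-fold at 49.5% of genes, so only columns of the same series of values were compared. Of the 2503 genes with a member, 627 (25.05%) were at least 2-fold higher in granulocytes than in GMP, against 11.4% of all genes, and 363 (14.5%) at least 2-fold lower, against 18.9%, with 40 added to both values. The share was higher with more members: it was 6.88% for the 7593 genes without a member, 16.5% for genes with 1 member, 29.1% for those with 2 to 4 and 51.7% for those with 5 or more. The share at least 2-fold lower went from 20.3% to 19.6%, 10.03% and 4.73% over the same 4 groups. Genes with more members also have more enhancers of every kind, and the part of that number was not tested.

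**Figure D5:**
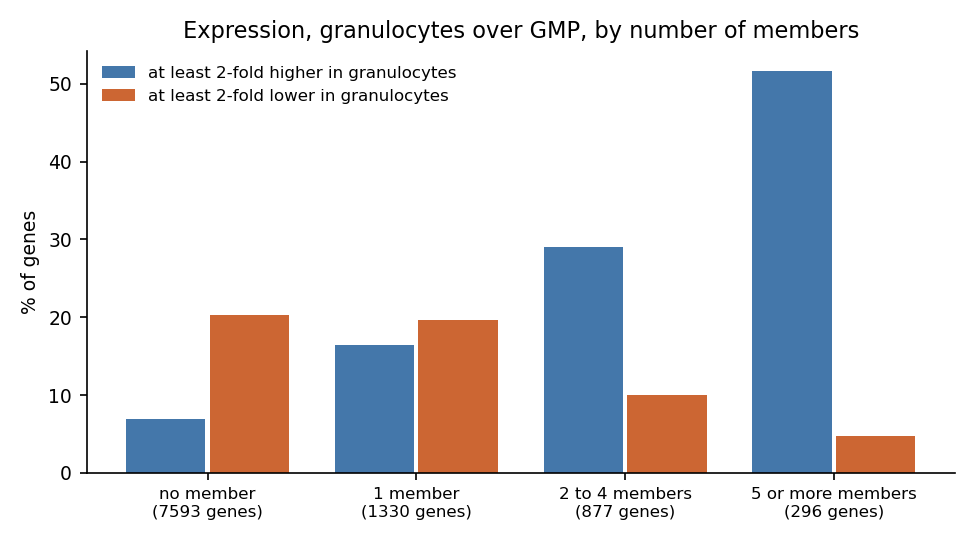
Share of genes (y axis, %) at least 2-fold higher (blue) or lower (orange) in expression in granulocytes than in GMP, by the number of members assigned to the gene (x axis, with the number of genes). The share higher goes from 6.88% without a member to 51.7% with 5 or more, and the share lower from 20.3% to 4.73%.

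The direction of H3K27ac at the members went with that of expression. Of the 983 genes with a member at least 2-fold higher in H3K27ac, 38.9% were at least 2-fold higher in expression and 5.70% lower. Of the 137 with a member at least 2-fold lower, 3.65% were higher and 56.2% lower. Of all genes, 11.4% were higher and 18.9% lower. The same split was not made for enhancers other than members, so whether this relation is particular to members was not tested. The 309 genes with no other enhancer than members did not follow the 2503 genes with a member. Of the 309, 11.7% were higher, near the share of all genes, and 25.6% lower, and 70 had 2 or more members. The largest ratios of granulocytes to GMP among genes with a member were at Cd177 (17.6 to 6581), Mmp9 (30.1 to 6049), Lcn2, Ifitm6, an interferon-induced membrane protein (51.2 to 5193), Camp (205.1 to 13747) and S100a6, a calcium-binding protein (19.9 to 3063). The smallest were at Taf1d, a subunit of the RNA polymerase I factor (3027 to 49.2), F13a1, coagulation factor XIII (4689 to 109.2), Slco4a1, Rif1, Ctsg (9052 to 565.5) and Snrpa1, a splicing factor. The members at Taf1d, Rif1 and Snrpa1, 1 each and the only enhancer of each gene, had H3K27ac of 9.46, 6.19 and 10.4 in GMP and 5.84, 2.32 and 5.80 in granulocytes.

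Loss of Cebpa was measured in preGM, before the stage at which the members are annotated. Expression of Cebpa was 208.3 in wild type and 48.3 in KO preGM, and which part of the gene is deleted is not stated. Over all members the genotypes had close medians: H3K27ac had one of 0.642 in KO against 0.627 in wild type preGM. It was at least 2-fold higher at 25 members (0.428%; 0.441% of all enhancers) and at least 2-fold lower at 31 (0.531%; 0.47% of all enhancers), shares near the background of the table. With 0.7 added to both values, a member under 0.7 in wild type preGM could not count as 2-fold lower even after complete loss. The wild type median of 0.627 lay under that value, so the share lower cannot separate kept from lost H3K27ac at the weaker members. H3K4me1 had medians of 1.41 and 1.42, and its log2 ratio lay between -0.78 and 0.93 at every member. With 2 added, members under 2 in wild type had the same limit in H3K4me1. PU.1 had medians of 0.633 and 0.613 and a median log2 ratio of -0.03. Over all enhancers that ratio was -0.27. At the granulocyte-only enhancers with a bound factor, which start from a preGM median of 2.67, it was -0.50. The members were selected as unbound, and with 0.6 added those under 0.6 in wild type could not show a 2-fold fall. Nothing is therefore read from this contrast in PU.1.

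The members furthest apart in H3K27ac were at 2.49 or lower in both genotypes. The highest H3K27ac ratio was at Il1b, interleukin 1 beta, with 0.255 in wild type and 1.54 in KO preGM, and the next at Rfx4, Rab20, Plau, Tbc1d8 and Palm, all under 0.32 in wild type and between 1.32 and 1.52 in KO. The lowest was at Aldh2, aldehyde dehydrogenase 2, with 1.41 and 0.124, then at Mki67, Smad3, Cdh26, Ccdc88b and Sept9. Of these last 5, Sept9 had the highest wild type value, 2.49 against 0.703. In PU.1 a pair of neighbouring members at Pion stood apart, with 1.49 and 1.27 in wild type and 5.72 and 4.59 in KO preGM, and the lowest ratios were at Mbp (3.799 and 0.630), Itpkb and Itm2b. In H3K4me1 the extremes were Cotl1 (1.73 and 5.12), Ube2g2 and Arap3 on the high side and Krt80 (4.67 and 1.87), Lyst and Lmo2 on the low side.

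The deleted gene itself has 1 member among its 16 enhancers, chr7:35908033-35908343. H3K27ac there was 0.812 in LSK, 2.95 in preGM, 3.17 in GMP and 3.59 in granulocytes, and 1.17 in KO preGM, a log2 ratio of -0.96 to wild type. Its H3K4me1 was 4.23, 4.04, 6.66 and 8.74, and 2.71 in KO preGM. Whether this enhancer lies inside a deleted stretch was not tested.

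Expression in KO preGM was at least 2-fold higher at 7 of the 2503 genes with a member (0.28%; 0.277% of all genes) and at least 2-fold lower at 17 (0.679%; 0.406% of all genes). The genes furthest down were Ctsg (2096 in wild type and 190.2 in KO), Emb, an adhesion protein (1758 and 159.6), and S100a9 (498.0 and 45.7), and those furthest up Eps8l3 (117.4 and 373.1), Aqp11, an aquaporin (224.6 and 647.2), and Alox5, the 5-lipoxygenase of leukotriene synthesis (146.3 and 368.7). Other genes with members were also lower: Cxcr2 (570.4 and 87.7), S100a8 (212.3 and 24.8) and Hp (245.8 and 49.8). At their strongest members H3K27ac in wild type and KO preGM was 0.672 and 0.234 for Cxcr2, 0.492 and 0.606 for S100a8 and 1.63 and 0.754 for Hp. The sum of the granulocyte markers was 1757 in wild type and 519.4 in KO preGM. That of the monocyte and macrophage markers was 4778 and 1195, and that of the T and NK markers 1436 and 2091. The fall in the granulocyte sum rests mostly on Cxcr2, S100a9 and S100a8, whose values are given above. Camp (77.3 and 57.6), Ltf (43.2 and 33.3), Ngp (74.3 and 36.9) and Csf3r (150.2 and 92.4) fell by smaller amounts. Mmp9 (41.8 and 43.05) and Itgam (89.4 and 98.1) were slightly higher in KO preGM. The part of a shift in the mix of sorted cells in these expression differences was not tested.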

How the data were processed

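The authors deposited 1 table of 44002 enhancers with mm9 coordinates (whether the start is counted from 0 is not stated), an assigned gene, stage flags, a class of bound factors and value columns. The 15 ChIP columns used hold a deposited linear signal per enhancer, 1 per group of assay, stage and genotype. Each was taken from its name to join the 2 libraries of its group. How the authors scaled the signal is not stated. The 6 expression columns used hold 1 deposited value per gene and group, of a unit that is not stated, and were compared within the 4 stages and within the pair of genotypes. Bowtie2, bedtools, MACS2, STAR, featureCounts and DESeq2 appear in the submitters' processing notes, without versions. The RNA libraries themselves were not analysed here, nor were 11 other value columns: 6 whose quantity is undescribed and 5 that match none of the samples.

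Members were the rows annotated to granulocytes alone with no bound factor. Members and gene lists were chosen with earlier results of these data known. Each comparison was a log2 ratio after adding the 25th percentile of the assay's columns, rounded to 1 digit, to both values: 0.7 for H3K27ac (0.65), 2 for H3K4me1 (2.44), 0.6 for PU.1 (0.635) and 40 for expression (43.3). Enhancers and genes at least 2-fold different were counted, with no filter and no test, and set beside all 44002 enhancers or 10096 genes. The steps were tested on simulated data. Genes were named by a rule: the 10 members highest in H3K27ac in granulocytes, the 6 highest and 6 lowest ratios, the 10 genes with the most members (12 in the plot), up to 6 genes of each list, the extremes of the KO comparisons and of expression, the highest PU.1 and CEBPA values, and members at the edges of the annotation. Members under 50 bp wide were not named for a ratio. One gene that the rule names is not reported here. The runs of neighbours, further genes of the lists, and Cxcr2, S100a8 and Hp in the KO comparison were named after their values were seen. Promoters came from RefSeq. Python 3.11.15, numpy 2.4.6, pandas 2.3.3 and scipy 1.17.1 were used. Alternatives were the added value 4 times smaller and larger, the median of all enhancers or genes subtracted, members with at least the median signal, members at least 100 bp wide, 1 member per gene, and genes with no enhancers other than members.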

Additional observations from a re-analysis of the deposited data

How the results depend on the processing

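No paired analysis was possible because the table holds 1 value per enhancer for each group, and for the same reason no library could be left out. Of 118 alternatives to the main values, 75 stayed within 1.5 times (shares) or 0.1 log2 (medians). With the value added before the ratio 4 times smaller or larger, the share of members at least 2-fold higher in H3K27ac from GMP to granulocytes was 52.2% or 4.90%, and lower was 1.42% with the larger. From preGM to GMP it was 17.0% or 0.736%. In KO preGM, higher was 5.79% or 0% and lower 4.54% or 0% of members. H3K4me1 from GMP to granulocytes was 0.942% with the larger. The median log2 ratio was 1.19 or 0.39 for H3K27ac and 1.87 or 0.60 for H3K4me1 from LSK to granulocytes, and 0.43 or 0.10 for H3K4me1 from preGM to GMP. With the larger value, 0.0400% of genes with a member were at least 2-fold higher and 0.28% lower in expression in KO preGM.

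Subtracting the median of all enhancers gave 1.59% for H3K27ac higher from preGM to GMP and turned its median to -0.10. It gave 0.805% for H3K27ac lower in KO preGM, 21.1% for H3K4me1 from GMP to granulocytes, and medians of 0.40 (H3K27ac) and 0.80 (H3K4me1) from LSK to granulocytes, 0.046 for H3K4me1 from preGM to GMP and -0.091 in KO preGM, and for PU.1 -0.22 from LSK to preGM and 0.24 in KO preGM. Members with at least the median signal gave 7.09% for H3K27ac lower from GMP to granulocytes, 13.6% higher from preGM to GMP, and 17.3% for H3K4me1 from GMP to granulocytes. Their medians were 0.066 for H3K27ac from LSK to preGM, 1.14 (H3K27ac) and 0.74 (H3K4me1) from LSK to granulocytes, 0.13 for H3K4me1 in KO preGM, and for PU.1 0.32 from LSK to preGM and -0.29 in KO preGM. With 1 member per gene, H3K27ac was lower at 5.27% from GMP to granulocytes and higher at 10.1% from preGM to GMP, and the H3K4me1 median from LSK to granulocytes was 1.03. Of the genes with no other enhancers than members, 11.7% were at least 2-fold higher and 25.6% lower in expression in granulocytes than in GMP and 0% higher in KO preGM, and their median log2 ratio from LSK to granulocytes turned to -0.086 from 0.16. The cause of these shifts was not tested, apart from the weight that the added value has at weak enhancers.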
